A study of Canis lupus familiaris with 23 samples.

Results

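The genes described here mark the walls of blood vessels: PECAM1, TIE1, CD34 and AQP1, found in endothelium, and ACTA2, found in the contractile cells around it. They were taken by name, with every probe set (a group of array probes that reads 1 transcript) annotated to 1 of the 5 symbols, which gave 17 of the 23836 probe sets tested and 5 of 6540 named genes. PECAM1 had 7 probe sets, CD34 and AQP1 had 4 each, and TIE1 and ACTA2 had 1 each. The genes were chosen with earlier results of these data known.

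A blood vessel is a tube of endothelial cells on a basement membrane, with pericytes or smooth muscle cells (together called mural cells) wrapped around it. Tumors that grow beyond a small size draw vessels in from the host, and these are often leaky and unevenly covered by mural cells. Bone is itself rich in sinusoidal vessels, and osteosarcoma, a bone-forming cancer, commonly spreads through the blood. Cultured tumor cells have no vessels, while kidney, liver and lymph node each have a vascular bed of their own kind.

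The study profiled osteosarcoma in dogs to set it beside the human disease, and asked which genes part tumors from normal tissues. RNA of 23 samples was hybridised to Affymetrix canine arrays. The tumors were 15 primary osteosarcomas taken from pet dogs at surgery, before any chemotherapy. They were set against 2 osteosarcoma cell lines of the dog, harvested from culture plates, and against 6 normal samples of colony dogs, which were 2 kidneys, 2 livers and 2 lymph nodes. The sample labels give no genotype, age or treatment, normal bone was not analysed here, and whether 1 dog gave several organs is not stated. Values are log2 expression after robust multi-array averaging (RMA), in which every array is brought to the same distribution, so a difference is a log2 ratio. The level of 1 probe set cannot be set against that of another. In bulk tissue, fewer cells of a type and less RNA per cell cannot be told apart.

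Facts of the arrays that touch these genes come first. The array's control probe sets compare the 3′ and the 5′ end of the actin and Gapdh transcripts, and on 10 of the 23 arrays the 5′ end was weak (3′ minus 5′ of 3.15 to 6.45 on the log2 scale), against -0.32 to 0.85 on the other 13. Low 5′ signal marked 7 of the 15 tumors (1, 4, 7, 8, 10, 12 and 14) and replicate 1 of each organ, and neither cell line. The mean lower quartile, median and upper quartile of an array were 3.92, 4.85 and 6.61. Organ markers followed the labels: the summed level of 10 proximal tubule genes was highest in kidney, that of 12 hepatocyte genes in liver and that of 7 lymphocyte genes in lymph node. Tumor 5 stood apart, with a summed level of 15 skeletal muscle genes of 14.8 (second highest tumor 10.2, median 8.91) and of 6 adipocyte genes of 11.8 (second highest 8.82, median 7.71). Leaving tumor 5 out changed no call of the 17 probe sets between groups.

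All 5 vessel genes were higher in tumors than in osteosarcoma cell lines. By the probe set with the highest mean of each gene, ACTA2 was 61.8-fold, PECAM1 43.2-fold, AQP1 15.5-fold, TIE1 4.85-fold and CD34 3.25-fold higher, and for each of these the 15 tumors lay above both cell lines. Of the 17 probe sets, 6 were higher and 0 lower at an adjusted p under 0.01 in limma (linear models with variances moderated across probe sets, p-values adjusted by Benjamini-Hochberg over all 23836), where 2.50% of all probe sets were called higher and 3.77% lower. By 1 probe set per gene the call covered 5 of 5, against 2.92% of the 6540 genes. Tumors and cell lines did not overlap in 9 of the 17, always with tumors higher, against 9.52% of all probe sets. The median difference of the 17 was 1.28, against 0.02 over all probe sets.

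**Figure D1:**
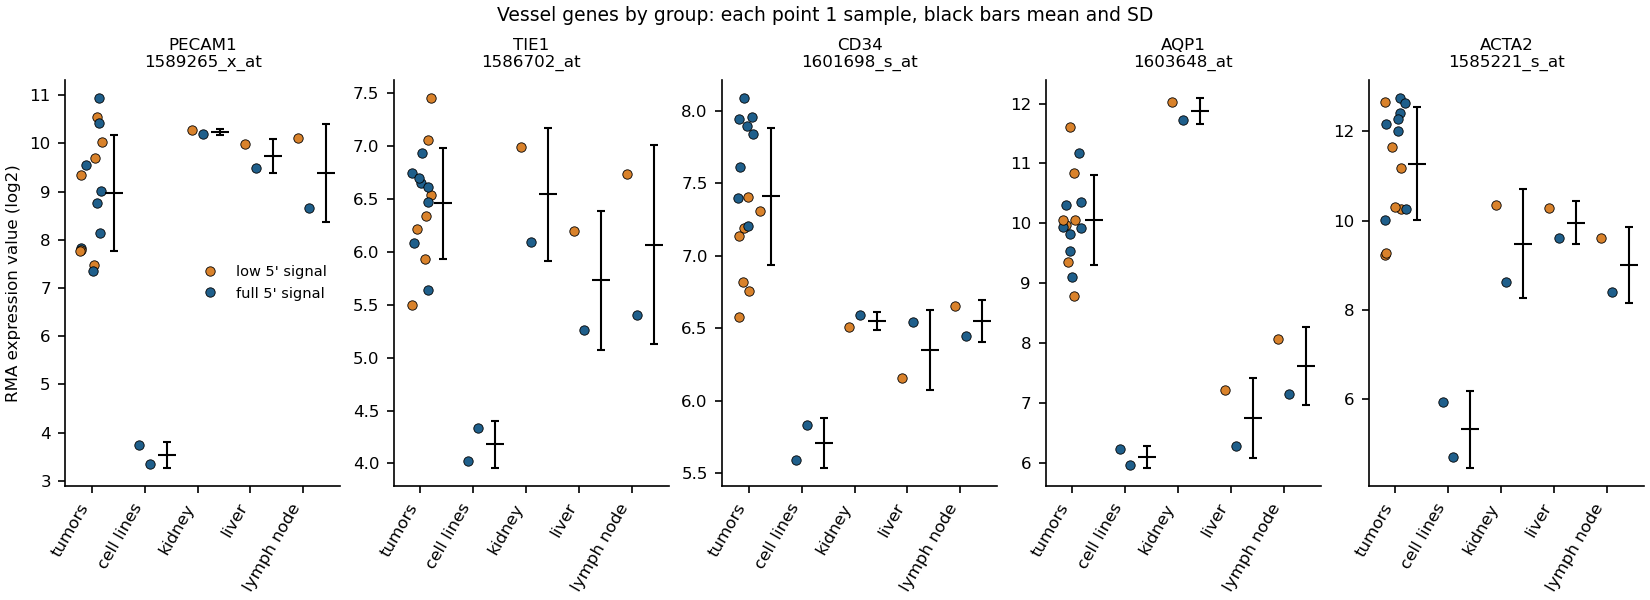
RMA expression (log2, y axis, a separate scale for each gene) of the highest-mean probe set of each gene, by group; each point is 1 sample, its colour the 5′ signal class, and black bars give the mean and SD (15 tumors, 2 samples in each other group). The cell lines lie below every tumor in all 5 panels, and the 2 kidney samples lie above every tumor for AQP1.

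PECAM1 encodes CD31, a cell adhesion molecule at the junctions between endothelial cells that is also found on platelets and leukocytes. Its probe set 1589265_x_at read 7.35, 9.01 and 10.94 (lowest, median and highest of 15 tumors), against 3.73 and 3.35 in cell lines 1 and 2. The cell line values were below the mean lower quartile of an array (3.92), and tumor 5 was the highest tumor. The difference was 5.43 ± 0.78 (SE, adjusted p = 0.000138, limma).

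A second set of the same kind, 1589769_x_at, rose by 4.10 ± 0.78 (adjusted p = 0.00158, limma). In the third, 1591173_s_at, tumors read 4.88 to 9.41 against 2.98 and 3.63 in the cell lines, and the difference of 3.65 ± 1.01 missed the threshold (adjusted p = 0.0198, limma). It passed among arrays with full 5′ signal only (4.45, adjusted p = 0.00403) and with the 5′ index as a covariate (4.17, adjusted p = 0.000698). Sets 1602728_at and 1594625_at differed by 1.37 and 1.28 without passing, and 1594626_at and 1594669_at, which stayed between 3.94 and 5.72 in all 23 samples, by 0.18 and 0.12. On this array the suffix x_at marks sets whose probes can match other transcripts, and s_at sets shared by related transcripts.

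ACTA2, the smooth muscle alpha actin of pericytes, arterial walls and activated fibroblasts, had the largest difference of the 17. Tumors read 9.22, 11.65 and 12.75 (lowest, median, highest), against 5.94 and 4.72 in cell lines 1 and 2. The gap between the lowest tumor and the higher cell line exceeded the SD of either group, and the difference was 5.95 ± 0.86 (SE, adjusted p = 0.000134, limma). Actin genes are near-identical in their coding parts, and this set is of the shared kind, so signal from sister actins cannot be told apart from that of ACTA2. The 5 other actins measured did not pass the test in this comparison: ACTC1 (cardiac) differed by 0.73, ACTG2 (smooth muscle gamma) by 0.41, ACTA1 (skeletal) by 0.40, and the cytoplasmic ACTB and ACTG1 by -0.94 and -0.93.

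AQP1 encodes the water channel of capillary endothelium, red cells and the proximal tubule of the kidney. Set 1603648_at read 8.79, 9.96 and 11.60 (lowest, median, highest tumor), against 6.23 and 5.97 in cell lines 1 and 2. No tumor came near either cell line, and the difference of 3.96 ± 0.50 (adjusted p = 3.63e-05, limma) had the lowest adjusted p of the 17. TIE1 is a receptor tyrosine kinase of endothelium that works with TEK, the angiopoietin receptor. Its only set read 5.50, 6.54 and 7.45 (lowest, median, highest tumor), against 4.02 and 4.34 in cell lines 1 and 2, a difference of 2.28 ± 0.40 (adjusted p = 0.000928, limma). CD34, a sialomucin of capillary endothelium and of blood stem cells, read 6.58, 7.40 and 8.09 in tumors (set 1601698_s_at), against 5.59 and 5.83 in cell lines 1 and 2, a difference of 1.70 ± 0.31 (adjusted p = 0.00119, limma). Neither this CD34 set nor the TIE1 set overlapped between the groups, although the step was narrower than for ACTA2 and the highest-mean PECAM1 set. CD34 1582535_at did not overlap either, but its difference of 0.98 missed the threshold (adjusted p = 0.0136, limma). The groups did overlap in CD34 1583097_at (difference 0.04) and 1583098_at (0.17), neither called. They also overlapped in AQP1 1582657_s_at (0.50), 1582940_at (0.15) and 1582656_at (1.10), none of them called.

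With 2 cell lines, 1 sample can settle a call. Left without cell line 1, 3 of the 6 calls went (TIE1 0.0318, CD34 0.0375 and PECAM1 1589769_x_at 0.0404, adjusted p in limma), and without cell line 2 the same 3 went with ACTA2 (0.0149, 0.0176, 0.0238 and 0.0116). PECAM1 1589265_x_at and AQP1 1603648_at stayed called in both.

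**Figure D2:**
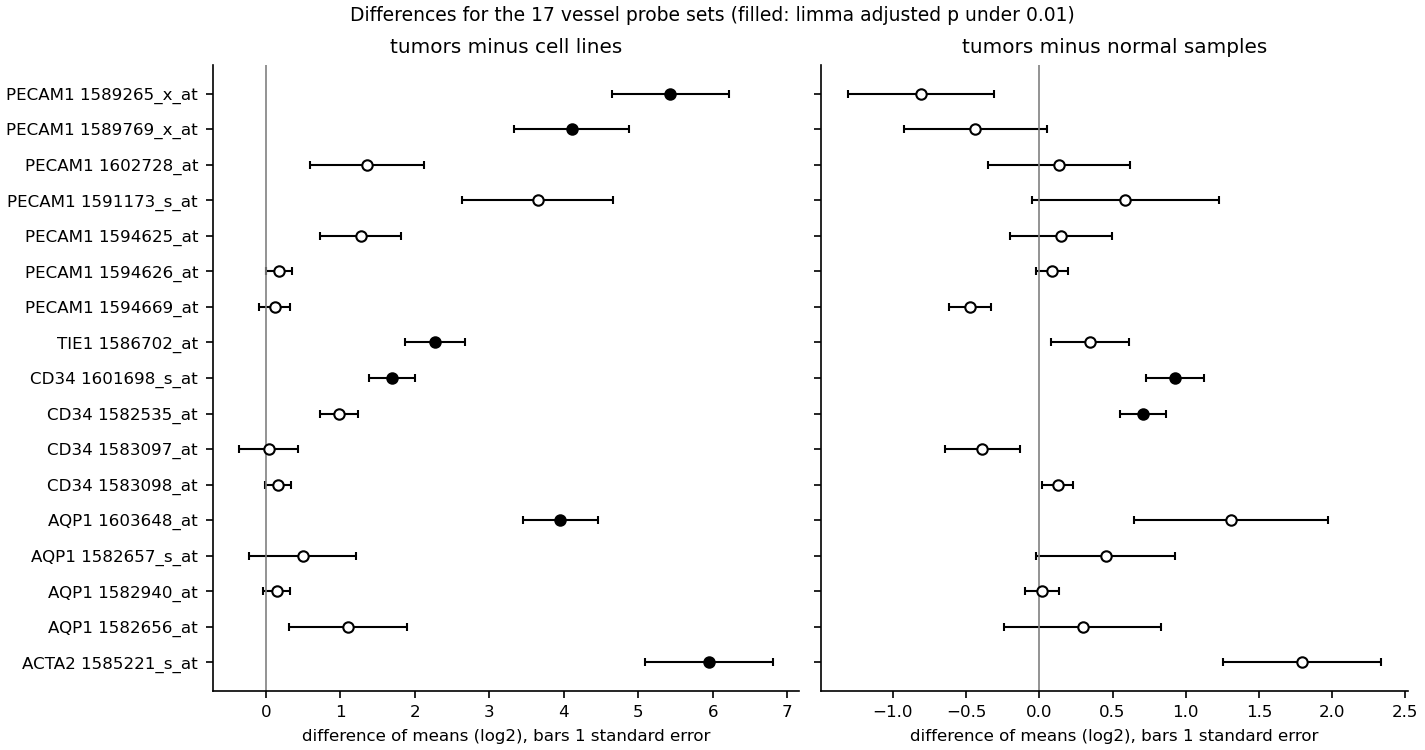
Difference of group means (log2, x axis; bars are 1 standard error) for each of the 17 probe sets, tumors minus cell lines on the left and tumors minus the 6 normal samples on the right, with filled points where the limma adjusted p was under 0.01. On the left 6 points are filled and all 17 lie above 0, and on the right only the 2 CD34 sets are filled.

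Other endothelial genes fixed in a list showed the same side of the comparison less evenly. The list held 49 genes, of which 19 were measured by a named probe set; KDR and CDH5 were not among them. In tumors against cell lines 2 of 19 were called higher and 0 lower, where 2.92% of all named genes were called higher. These were LMO2, a transcription cofactor of endothelium and blood (2.61 ± 0.48, adjusted p = 0.00132, limma), and ECSCR, an endothelial surface protein (2.57 ± 0.52, adjusted p = 0.00261). Without cell line 1 or 2 neither stayed under the threshold (LMO2 0.0597 and 0.01, ECSCR 0.04 and 0.0458, adjusted p in limma). For 7 of the 19 all tumors lay above both cell lines, against 9.52% of all probe sets. Differences spanned -1.34 to 3.60 with a median of 0.61 (-0.10 over all named genes). The lowest was CAV1, the caveolar coat protein, at 11.99 in the cell lines, so the summed level of the list overlapped between tumors (11.2 to 13.3) and cell lines (11.9 and 12.7). Of the mural list 19 of 30 genes were measured, with 0 higher and 1 lower, where 3.77% of all probe sets were lower. The lower gene was the smooth muscle coactivator MYOCD (3.27 against 4.19, adjusted p = 4.3e-06, limma). The summed levels of the mural list overlapped between tumors and cell lines.

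Markers of other cells moved with the same comparison. Among macrophage genes 7 of 14 were called higher in tumors than in cell lines (2.92% of all named genes) and 0 lower (median difference 2.80). Their summed level was 11.4 to 13.7 in tumors against 8.69 and 8.87. CD34, PECAM1 and AQP1 are also made by blood cells: the 3 platelet genes measured had summed levels of 6.07 to 7.07 in tumors against 5.99 and 6.86 in cell lines, and the 2 erythroid genes 7.12 to 7.91 against 7.27 and 7.31, with 0 called in either list. The erythroid sum hides a split between its genes. GATA1 was level (means of 6.99 in tumors and 7.02 in cell lines). EPB41 had means of 5.79 and 4.76, with every tumor above both cell lines. Among lymphocyte genes 0 of 7, skeletal muscle 0 of 15, adipocyte 0 of 6 and proximal tubule 0 of 10 were called, and among fibroblast genes 1 of 11, osteoblast matrix genes 1 of 9 and hepatocyte genes 1 of 12, all higher in tumors. The part of these cells in the vessel genes' differences was not tested.

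Against the normal organs pooled, only CD34 was higher in tumors. Of the 17 probe sets, 2 were called higher and 0 lower, where 3.02% of all probe sets were higher and 2.93% lower. At an unadjusted p under 0.05 in limma the counts were 3 higher and 1 lower, with the share of all probe sets not counted. The median difference of the 17 was 0.15, against -0.02 over all probe sets. For 0 of the 17 did all tumors lie above or below all normal samples, against 0.982% of all probe sets above and 0.445% below. Both calls rest on the way 3 unlike organs are pooled, as given below.

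CD34 1601698_s_at read 6.58, 7.40 and 8.09 in tumors (lowest, median, highest), against 6.51 and 6.59 in kidney, 6.16 and 6.54 in liver, and 6.65 and 6.45 in lymph node. Of the tumors 14 of 15 lay above every normal sample, tumor 7 being the exception, and the normal samples spanned a far narrower range than the tumors. The difference was 0.93 ± 0.20 (SE, adjusted p = 0.00326, limma), or 1.90-fold. A second set, 1582535_at, was 0.71 ± 0.16 higher (adjusted p = 0.00464, limma) with 11 of 15 tumors above every normal sample.

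The other CD34 sets did not follow. Set 1583097_at differed by -0.39 ± 0.26 and 1583098_at by 0.13 ± 0.11, neither called. With the organ as a random block the adjusted p of the 2 called sets was 0.0101 and 0.0164, with each organ averaged to 1 profile 0.0481 and 0.0399, and among arrays of low 5′ signal 0.126 and 0.289, all above the threshold of 0.01. Among arrays of full 5′ signal they were 0.00579 and 0.0199. Without liver 1 both calls went (0.0130 and 0.0140), and without kidney 2, liver 2 or lymph node 2 that of 1582535_at (0.0125, 0.0175 and 0.0118).

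ACTA2 was 1.79 ± 0.54 above the normal samples with 9 of 15 tumors above all of them, which missed the threshold (adjusted p = 0.0331, limma). It read 10.35 and 8.62 in kidney, 10.30 and 9.62 in liver and 9.60 and 8.41 in lymph node. Tumors 4 and 12 lay below both liver samples, and all others above at least 1 of them. Among full 5′ arrays alone the difference was 2.93 ± 0.62 (adjusted p = 0.0272) and among low 5′ arrays 0.57 ± 0.69 (adjusted p = 0.693), and the test of that difference between classes gave -2.36 ± 0.97 (p = 0.0246, adjusted p = 0.344, limma). Across all 17 sets 0 passed that interaction test at an adjusted p under 0.01, where 0.0378% of all probe sets passed. At an unadjusted p under 0.05 there were 5 of the 17, and the share of all probe sets at that level was not counted.

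PECAM1 1589265_x_at stood at 10.27 and 10.19 in kidney, 9.98 and 9.49 in liver and 10.10 and 8.67 in lymph node, so that 6 of 15 tumors lay below every normal sample and 3 above. The difference from the pooled organs was -0.81 ± 0.50 (adjusted p = 0.329, limma). For TIE1 the organs read 6.99 and 6.10 in kidney, 6.20 and 5.27 in liver and 6.73 and 5.41 in lymph node, and tumors differed from them by 0.35 ± 0.27 (adjusted p = 0.454, limma). Neither PECAM1 1589265_x_at nor the TIE1 set separated tumors from any organ. The limma tests against single organs gave adjusted p-values of 0.284 or more for TIE1 and 0.414 or more for PECAM1 1589265_x_at. The weak PECAM1 set 1594669_at, given below, differed in this.

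By its highest-mean set, AQP1 was the vessel gene with the clearest order of organs. Set 1603648_at read 12.03 and 11.72 in kidney, 8.07 and 7.15 in lymph node, 7.22 and 6.28 in liver, and, as above, 8.79 to 11.60 in tumors and 6.23 and 5.97 in cell lines. Kidney was above every tumor, every tumor above both lymph nodes, and liver and lymph node overlapped. Kidney also carried the proximal tubule, a known site of AQP1: the summed level of 10 tubule genes was 14.2 and 14.3 there, against 8.56 to 10.1 in tumors. In liver, where AQP1 was low, that sum was 12.4 and 12.8, also above every tumor. The part of the tubule in the kidney's AQP1 level was not tested.

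Tumors exceeded liver in AQP1 by 3.31 ± 0.50 (adjusted p = 5.56e-05, limma) and lymph node by 2.45 ± 0.50 (adjusted p = 0.00303). From kidney they differed by -1.82 ± 0.50, with all 15 tumors below both kidneys, but this missed the threshold (adjusted p = 0.0191) unless tumor 14, the highest, was left out (adjusted p = 0.00458). Kidney exceeded liver by 5.13 ± 0.66 (adjusted p = 1.34e-05, limma) and lymph node by 4.26 ± 0.66 (adjusted p = 0.000132), and liver differed from lymph node by -0.86 ± 0.66 (adjusted p = 0.551). The pooled contrast, 1.31 ± 0.66 (adjusted p = 0.215), averages over organs that lie on either side of the tumors. Left without liver 2, the call against liver went (adjusted p = 0.0108), as did that against lymph node without lymph node 1 (0.0151) or 2 (0.175). In low 5′ arrays alone neither passed (0.0911 and 0.385), and in full 5′ arrays only liver did (0.00169; lymph node 0.0162).

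The remaining members added few calls by organ. AQP1 1603648_at was the 1 of 17 probe sets called in tumors against liver (3.42% of all probe sets higher, 5.86% lower) and in tumors against lymph node (1.33% higher, 2.91% lower). It was also the 1 called in kidney against liver (3.81% of all probe sets, either way) and in kidney against lymph node (5.66%). In tumors against kidney 0 of 17 were called in limma (7.26% of all probe sets). At an unadjusted p under 0.05 there were 5, with the share of all probe sets not counted. Between liver and lymph node 0 of 17 were called in limma (6.78% of all probe sets), and 0 had an unadjusted p under 0.05. All tumors lay below both kidneys in 1 set (AQP1 1603648_at; 6.62% of all probe sets) and above both lymph nodes in the same 1 set (3.52%). Tumors did not overlap with liver in 4 sets, 3 of them higher in tumors (AQP1 1603648_at and both CD34 sets called above; 6.91% of all sets were higher without overlap) and 1 lower, PECAM1 1594669_at (4.39 ± 0.20 against 5.05 and 4.84; 7.73% lower). CD34 1601698_s_at was 1.06 ± 0.31 above liver (adjusted p = 0.0240, limma), and called without tumor 7, the lowest (0.00981). With kidney 2 left out the weak PECAM1 set 1594669_at was called lower in tumors than in kidney 1 (-1.33, adjusted p = 0.000217), as it was within low 5′ arrays (-1.24, adjusted p = 0.0084). For the aquaporins AQP5, AQP8, AQP11 and MIP, tumor means were 5.44, 5.41, 4.20 and 4.23, and tumors were lower than liver in AQP8 (-1.09) and AQP11 (-1.77), and than kidney in AQP11 (-1.50).

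Lists of vessel genes were also set against the organs. In the pooled comparison 3.02% of all probe sets were called higher in tumors and 2.93% lower. Against the pooled normal samples, 1 of 19 endothelial genes was called, CAV1, higher in tumors (10.65 ± 1.10 against 7.90 ± 1.10, SD; adjusted p = 0.00109, limma), and 3 of 19 mural genes, the actin crosslinker FLNA (2.99) and the tropomyosins TPM2 (1.91) and TPM1 (1.30), which many other cells make as well. Single organs added MEF2C, a transcription factor of endothelium and muscle (3.70 over liver), ECSCR (2.02 over liver), the actin-binding CALD1 (2.02 over kidney and 1.99 over lymph node) and, in the other direction, the endothelial and leukocyte adhesion molecule ICAM2, lower than in lymph node (-2.18). Each of these single-organ calls ended when an organ sample was left out: MEF2C without either liver (adjusted p = 0.0584 and 0.14, limma) and without several tumors, ECSCR without either liver (0.0934 and 0.119) and in most other such fits, CALD1 without either kidney (0.0189 and 0.115) or either lymph node (0.0134 and 0.32), and ICAM2 without lymph node 2 (0.0327). Of 11 angiogenic signals 1 was higher in tumors, the secreted lipase inhibitor ANGPTL4 (2.09 ± 0.50, adjusted p = 0.00792; 0.0105 to 0.0244 without tumor 1, 2, 6, 7, 8, 11 or 15, either kidney, either liver or lymph node 2, each of which ended the call), and of 4 lymphatic and sinusoidal genes 1, podoplanin PDPN (4.15 ± 0.50, adjusted p = 1.01e-05), which osteoblast-lineage cells make too. In the same comparison fibroblast genes were called higher in 7 of 11 and osteoblast matrix genes in 4 of 9.

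Probe sets of 1 gene differed in how they followed the 5′ signal of the tumors. Within tumors, AQP1 1582656_at read 3.81 to 4.32 in the 7 tumors with low 5′ signal, against 4.91 to 6.75 in the 8 with full signal, without overlap (2.29% of all probe sets were lower without overlap). CD34 1583097_at ran the other way, 6.04 to 7.01 in low and 4.89 to 5.75 in full 5′ tumors (0.487% of all probe sets). Over the 15 tumors the correlation with the 5′ index was -0.931 for AQP1 1582656_at, -0.81 for AQP1 1582657_s_at, -0.799 for CD34 1601698_s_at and 0.876 for CD34 1583097_at. It was close to 0 for PECAM1 1589265_x_at (0.024) and 1589769_x_at (-0.172), TIE1 (-0.12), AQP1 1603648_at (-0.062) and CD34 1582535_at (-0.001).

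**Figure D3:**
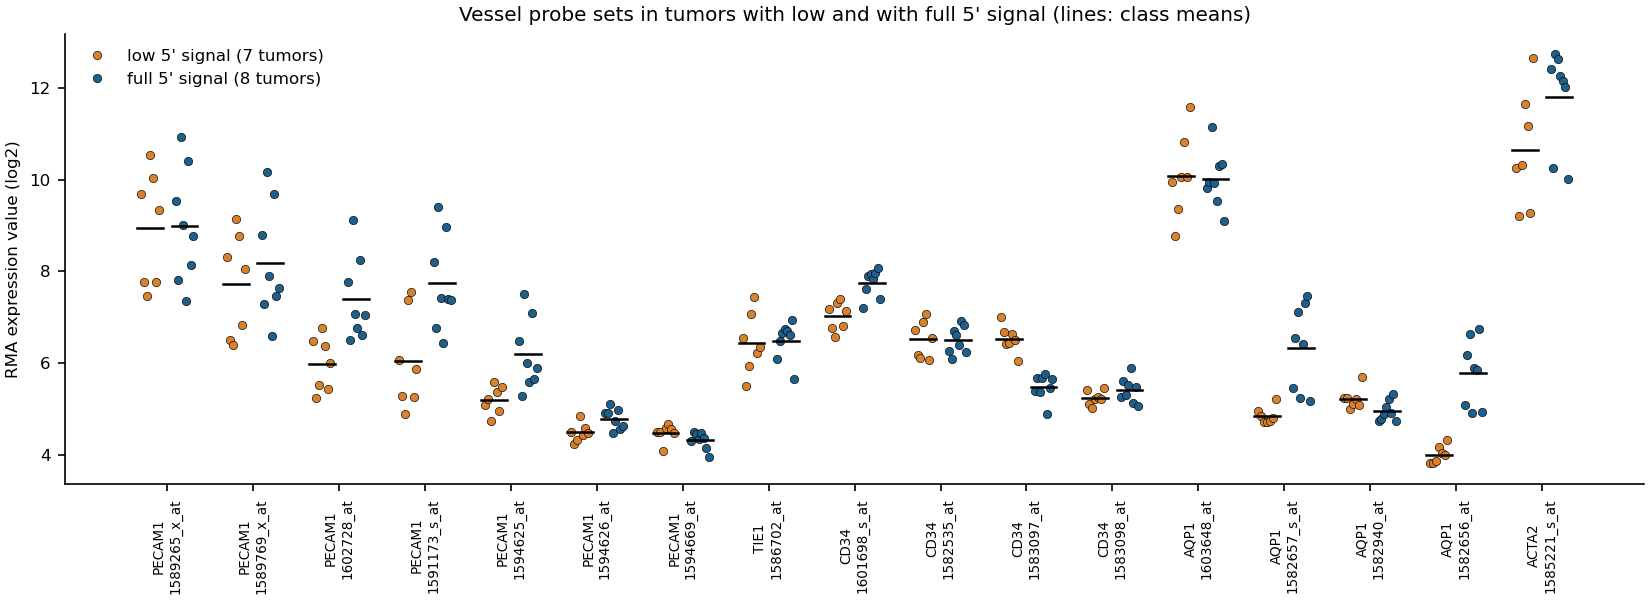
RMA expression (log2, y axis) of all 17 probe sets in the 7 tumors with low and the 8 with full 5′ signal; each point is 1 tumor and the black line the class mean. AQP1 1582656_at and CD34 1583097_at separate without overlap, in opposite directions, while the class means of TIE1 are 6.44 in low and 6.48 in full 5′ tumors.

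In the organs some sets split as in the tumors and others did not. Replicate 1, the low 5′ array of each organ, was below replicate 2 in 3 of 3 organs for PECAM1 1602728_at, 1591173_s_at and 1594625_at and for 3 AQP1 sets, by as much as 3.94 for PECAM1 1591173_s_at in kidney (4.34 against 8.28). It was above replicate 2 in 3 of 3 organs for TIE1, ACTA2, CD34 1582535_at, AQP1 1603648_at, PECAM1 1589265_x_at and PECAM1 1594669_at. ACTA2 thus ran the other way from the tumors, where its class means were 10.66 in low and 11.82 in full 5′ tumors, as did AQP1 1582940_at (5.22 and 4.95 in low and full 5′ tumors, but lower in replicate 1 of 3 of 3 organs). CD34 1601698_s_at, at 7.03 in low and 7.74 in full 5′ tumors, was higher in replicate 1 in 1 of 3 organs. Replicate and 5′ signal cannot be told apart in the organs.

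Most PECAM1 sets were high in the same tumors, with 1594669_at apart. Over the 15 tumors the 21 pairs correlated at -0.12 to 0.972 (median 0.729), with 14 above 0.5. The x_at pair reached 0.972, and 1589265_x_at with 1591173_s_at 0.729, which was 0.918 within the 7 low and 0.981 within the 8 full 5′ tumors. Set 1594669_at, the weakest, correlated with the other PECAM1 sets at -0.12 to 0.26 over the 15 tumors, at 0.457 to 0.701 within low and at 0.021 to 0.49 within full 5′ tumors. Set 1594626_at correlated with the first 5 at 0.509 to 0.683 within low and 0.582 to 0.715 within full 5′ tumors.

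CD34's 6 pairs ran from -0.71 to 0.538. The 2 sets that were called against normal samples correlated at 0.538 over the 15 tumors, at 0.960 within low and 0.789 within full 5′ tumors, whereas 1601698_s_at and 1583097_at correlated at -0.71 over the 15 and at 0.105 and -0.216 within the classes. For AQP1, 1582656_at and 1582657_s_at correlated at 0.948 over the 15 tumors, at 0.45 within low and 0.922 within full 5′ tumors. They correlated with 1603648_at only at 0.236 and 0.28, which became 0.834 and 0.554 in low and 0.703 and 0.702 in full 5′ tumors. The fourth set, 1582940_at, correlated with the others at -0.291 to 0.41 over the 15, at 0.616 to 0.923 within low and at 0.173 to 0.476 within full 5′ tumors. These correlations describe tumors that share their arrays' 5′ signal and carry no p.

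**Figure D4:**
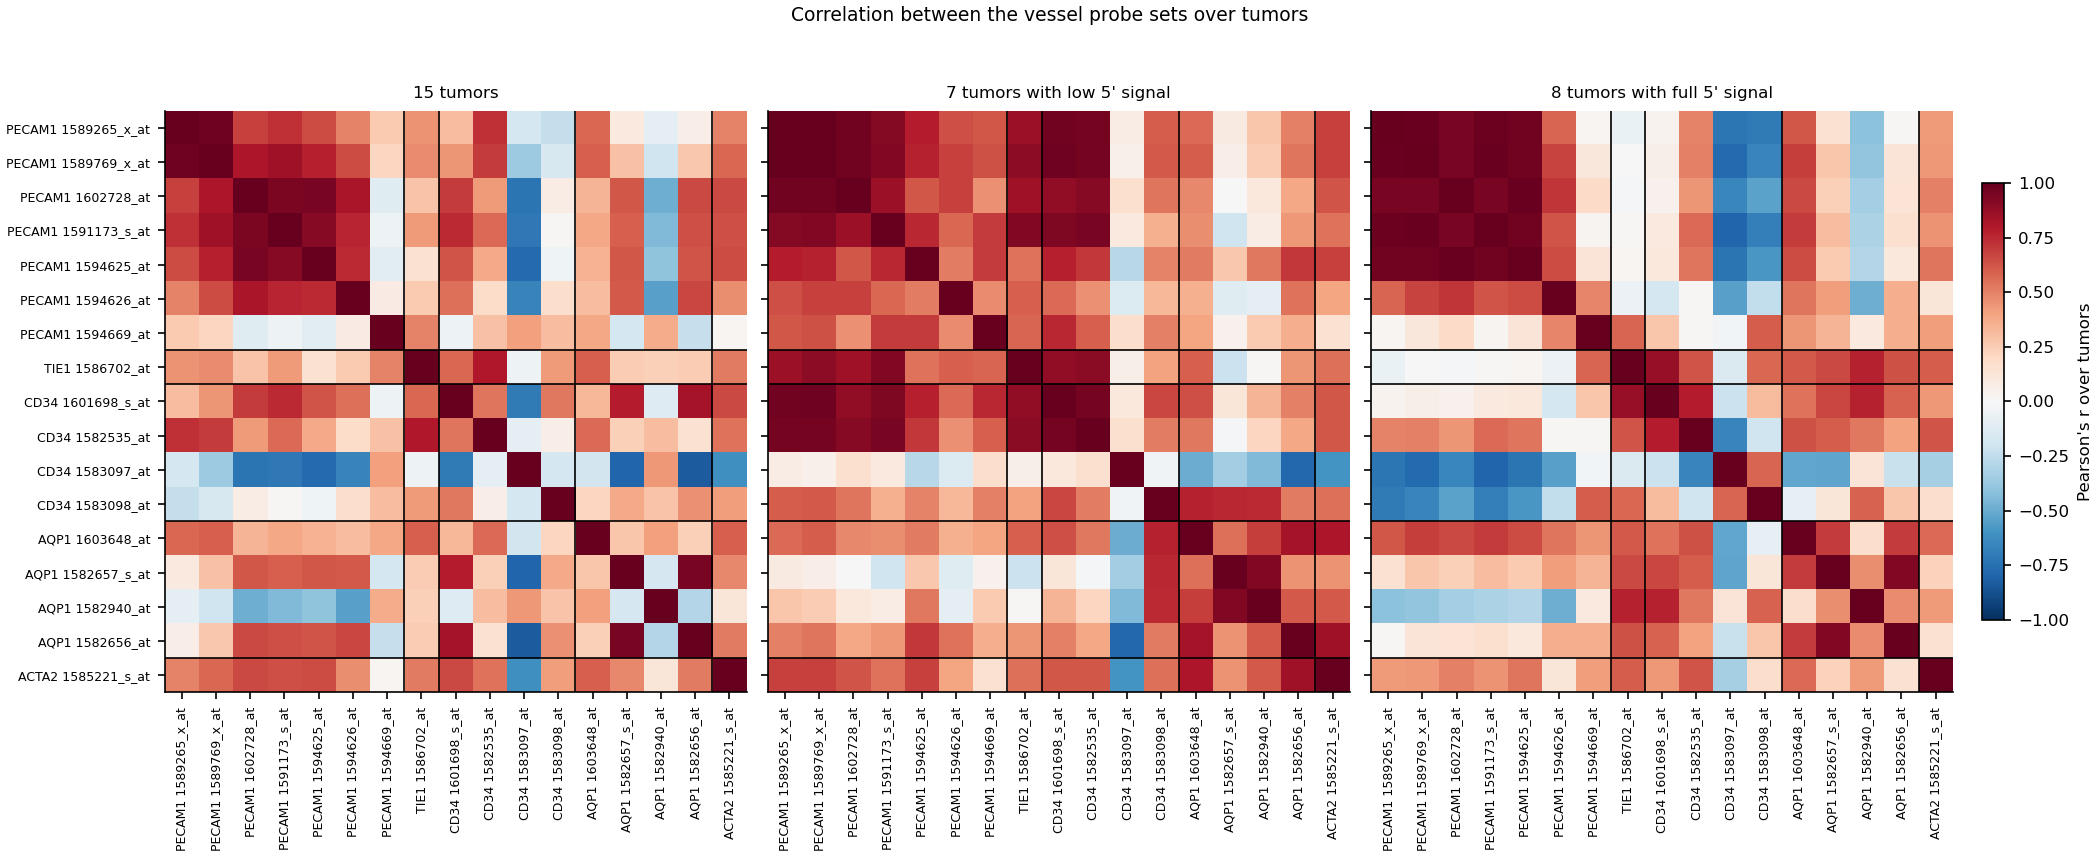
Pearson's r between every pair of the 17 probe sets (rows and columns, lines separating the genes) over the 15 tumors, the 7 with low and the 8 with full 5′ signal; red is positive and blue negative. The first 5 PECAM1 sets form a more uniform block within the full 5′ class than over the 15 tumors, and CD34 1583097_at is negative with most sets over the 15 tumors.

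Among the tumors some vessel sets varied widely and others did not. The SD over 15 tumors was 1.21 for PECAM1 1589265_x_at, 1.27 for ACTA2, 0.745 for AQP1 1603648_at, 0.524 for TIE1 and 0.475 for CD34 1601698_s_at. Over all probe sets the median SD was 0.262 and the upper quartile 0.501. The share of probe sets with a lower SD was 97.4%, 97.8%, 89.3%, 76.8% and 72.7% for these sets in the same order. It was 37.0% to 49.2% for PECAM1 1594626_at and 1594669_at, CD34 1583098_at and AQP1 1582940_at. Ranked 1 (highest) to 15 in each of the 5 genes, tumor 5 had the highest standing with a mean rank of 2.8 (first in PECAM1 and ACTA2), followed by tumors 11 (4.6) and 10 (4.8), and tumor 4 had the lowest (14.2, last in TIE1, AQP1 and ACTA2) followed by tumor 7 (13). Tumor 5 is the one with muscle and fat markers, and the part of those tissues in its vessel values was not tested. Tumors 4 and 7 were both of low 5′ signal.

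The 5 genes tended to be high in the same tumors, without passing the test. All 10 pairs correlated positively over the 15 tumors, with r of 0.311 to 0.661; 0 of 10 passed an adjusted p under 0.05 (permutation test, two-sided, Benjamini-Hochberg over the 10 pairs) and 6 had an unadjusted p under 0.05. The highest were CD34 with ACTA2 (r = 0.661, rho = 0.482, permutation p = 0.00891, adjusted p = 0.0528), TIE1 with AQP1 (0.598, rho = 0.600), AQP1 with ACTA2 (0.596, rho = 0.507), PECAM1 with AQP1 (0.575, rho = 0.614) and TIE1 with CD34 (0.572, rho = 0.661), all at an adjusted permutation p of 0.0528 for r and of 0.0680 or 0.126 for rho. Without the 2 tumors farthest from the median of the first gene these r were 0.657, 0.390, 0.438, 0.451 and 0.600, and without tumor 5 they were 0.627, 0.614, 0.537, 0.478 and 0.570.

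By CD34 set 1601698_s_at, TIE1 and CD34 correlated more closely within each 5′ class than over the pooled tumors, a difference that was not tested. Their r was 0.572 pooled, 0.886 within the 7 low 5′ tumors (exact permutation p = 0.00655, adjusted p = 0.0327) and 0.870 within the 8 full 5′ tumors (exact permutation p = 0.00813, adjusted p = 0.0813). Given the 5′ index the partial r was 0.798 (permutation p = 0.0001, adjusted p = 0.001). PECAM1 with CD34 split otherwise, 0.966 within low (exact permutation p = 0.00159, adjusted p = 0.0159) and 0.036 within full 5′ tumors (exact permutation p = 0.934), and likewise PECAM1 with TIE1, 0.854 and -0.067. The difference between the classes was not tested. These patterns depended on the CD34 set. With 1582535_at, TIE1 correlated at 0.800 pooled, 0.903 within low and 0.626 within full 5′ tumors. PECAM1 1589265_x_at correlated with that set at 0.734 pooled, 0.957 within low and 0.496 within full 5′ tumors. With CD34 sets 1583097_at and 1583098_at the pooled r was -0.049 and 0.428 for TIE1, and -0.177 and -0.239 for PECAM1 1589265_x_at. Taking each gene by the mean of its probe sets, TIE1 with CD34 reached 0.811 (adjusted permutation p = 0.0014) and PECAM1 and AQP1 with ACTA2 0.645 and 0.642 (adjusted permutation p = 0.0361 each).

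**Figure D5:**
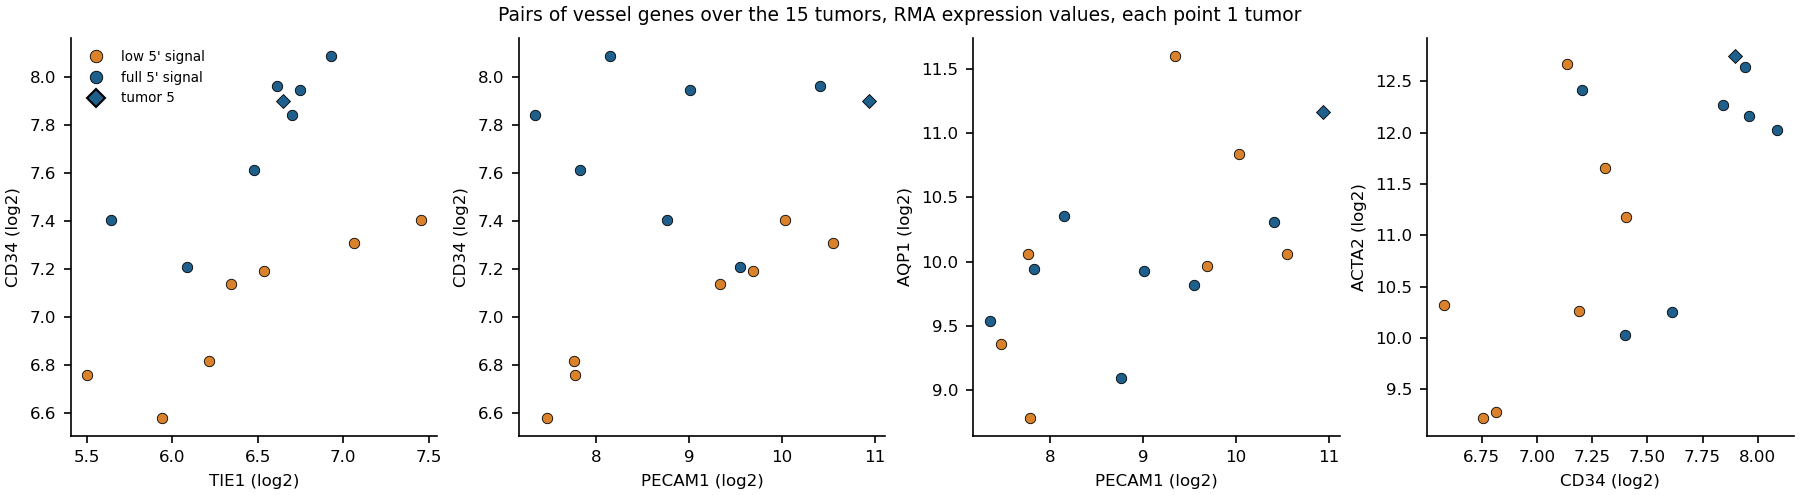
RMA expression (log2 on both axes) of 4 pairs of vessel genes, each gene by its highest-mean probe set (for CD34, 1601698_s_at). Each point is 1 of the 15 tumors, coloured by 5′ signal class, with tumor 5 as a diamond. For TIE1 and CD34 the low and the full 5′ tumors each rise together, with CD34 mostly higher in the full 5′ tumors, and for PECAM1 and CD34 only the low 5′ tumors rise together.

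The genes most like each member over the 15 tumors, out of 6539 named genes, differed from member to member, and are given as a description. For PECAM1 they were the endothelial ECSCR (r = 0.909, rho = 0.946; 0.977 within low and 0.936 within full 5′ tumors), the endothelial clotting inhibitor TFPI (0.897), LRRFIP1 (0.897), the spectrin SPTBN1 (0.883) and the microfibril protein MFAP5 (0.838). Picked after the values were seen, the endothelial genes VWF, SELP and TEK ranked 9, 13 and 46 for PECAM1 (r of 0.802, 0.785 and 0.709), while the 19 endothelial list genes ran from -0.526 (SHANK3) to 0.909 (ECSCR). Without tumor 5, ECSCR and TFPI stood at 0.930 and 0.881. For TIE1 the list was GNGT2 (0.879), SLC22A23 (0.849), TESPA1 (0.835), SHANK2 (0.805) and KANK3 (0.788), of which TESPA1 and SHANK2 stood at 0.575 and 0.494 within full 5′ tumors.

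For CD34 the nearest were the G protein subunit GNAQ (0.881), the vesicle GTPase RAB1B (0.869), the chaperone regulator BAG1 (0.866), ARHGEF3 (0.836) and the integrin ITGB3 (0.835), and within the low 5′ tumors GNAQ, RAB1B, BAG1 and ITGB3 stood at 0.435 to 0.541. AQP1 was most like the Wnt inhibitor DKK2 (0.793), CACNA1S (0.766), the leukocyte lipoxygenase ALOX5 (0.764, though rho = 0.407), CCN3 (0.760) and NIBAN1 (0.760). ACTA2 was most like IGFBP7, a secreted protein of vessel walls and stroma (0.849; 0.909 within low and 0.870 within full 5′ tumors), NFX1 (0.806), ELF2 (0.798), OTC (0.796) and MDN1 (0.790), of which NFX1 and MDN1 stood at 0.478 and 0.360 within full 5′ tumors. Its smooth muscle partners MYL9 and ACTG2, picked after the values were seen, ranked 8 (0.760) and 13 (0.732), while the 19 mural list genes ran from -0.35 (HIGD1B) to 0.76 and the 5 other actins from -0.112 (ACTB) to 0.732. Across all named genes the 95th percentile of r lay between 0.460 and 0.593 for the 5 members. The median r of the 19 endothelial list genes was 0.49 with PECAM1, 0.414 with ACTA2, 0.408 with CD34, 0.387 with AQP1 and 0.295 with TIE1, and that of the 19 mural genes 0.184, 0.282, 0.279, 0.21 and 0.142 in the same order. Over all named genes the median r lay between -0.096 and -0.028. Most lists of other cells lay below the endothelial list, but some lay above it. Lymphocyte genes had a median r of 0.467 with TIE1, skeletal muscle genes 0.442 with AQP1 and adipocyte genes 0.423 with CD34. The 2 erythroid genes had 0.603 with TIE1, 0.592 with AQP1 and 0.489 with ACTA2.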

How the data were processed

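Canine Affymetrix array values of 23 samples were used as deposited: log2 expression, which the authors made by RMA (affy) over the canine arrays together, as the labels and the study's methods state; versions are not given in the sources used here. Of 23913 probe sets 77 control sets were left out. Symbols came from the platform annotation (10549 probe sets with 1 symbol, 138 with several, 13149 with none; 10046 Entrez IDs matched RefSeq and 0 symbols changed), and of several sets of a gene the one with the highest mean over the 23 samples stood for it.

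Tumors were compared with the 6 normal samples as 2 groups, and with each organ and the cell lines in 1 fit of 5 groups. The fits used limma 3.58.1 in R 4.3.3, with Benjamini-Hochberg over 23836 probe sets and calls at an adjusted p under 0.01. The paper used limma for tumors against normal tissue too, without giving its model, and its methods name spleen, not analysed here. Its canine signature at that threshold was larger than the 720 higher and 699 lower probe sets called here, and the reason was not tested. The 5′ index averages, over the actin and the Gapdh controls, the 3′ value less the 5′ value, with a border of 1.5. Gene correlations used 100000 resamples, or every permutation for 7 and 8 tumors. The fits were tested on simulated data. Alternatives were the 5′ classes, a 5′ covariate, median centring, a filter on low means, other variance settings, organ blocks and leaving out each sample. P-values set a difference against the spread between these samples, and their small number limits the precision. In the fit of 5 groups 1 spread was shared by all 23 samples, so comparisons of groups of 2 rest largely on the spread among tumors.

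Named genes were all probe sets of the members, list genes past the threshold with the lowest p (up to 4 in each direction, or 3 where none passed) and the 5 genes of highest r with each member. The members, the lists and the tests were chosen with earlier results of these data known. The main fits did not pair the organ samples, and only an alternative on the 6 normal samples took the replicate number as a block. Deviations of equal numbers correlated at 0.607, 0.596 and 0.530 between organs. Replicate 1 is also the low 5′ array of each organ, so these values cannot tell a shared dog from a shared 5′ signal.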

Additional observations from a re-analysis of the deposited data

Results flagged for a closer look

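Among the 17 probe sets in the 6 normal samples, 2 had 1 sample far from the other 5 by Dixon's ratio (critical value 0.625 for 6 samples), and chance flags about 1 in 20 such groups. Kidney 2 was the highest in both, which are AQP1 sets: 1582656_at at 7.46 (ratio 0.857; kidney 1 at 3.95) and 1582657_s_at at 7.23 (ratio 0.812; kidney 1 at 4.65). Kidney 2 is the kidney array with full 5′ signal. Kidney 1, of low 5′ signal, was not below kidney 2 in AQP1 1603648_at (12.03, against 11.72 in kidney 2).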

How the results depend on the processing

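No member reversed its direction from a call under any alternative. The count of the 17 probe sets called against the pooled normal samples was 2, and became 0 with the organ as a random block, with each organ averaged and in low 5′ arrays, and 1 in full 5′ arrays. Against kidney it was 0 and became 1 in low 5′ arrays. Against liver it was 1 and became 0 in low 5′ arrays, and against lymph node 1 and 0 in each 5′ class. The within-class fits by organ were added after seeing the data and set 1 organ sample, assumed to vary like the other groups, against the tumors of its class. Leaving out each sample in turn gave 2 to 6 calls against cell lines, 0 to 2 against the normal samples, 0 to 1 against kidney, 0 to 2 against liver, 0 to 1 against lymph node, 1 for kidney against liver in each fit, 1 to 2 for kidney against lymph node (2 without kidney 2, with PECAM1 1594669_at) and 0 for liver against lymph node. With the 6 normal samples alone, the replicate block kept 1 call for kidney against liver and 1 for kidney against lymph node (AQP1 1603648_at, adjusted p = 0.00117 and 0.00228, limma) and 0 for liver against lymph node. Without the block, kidney against lymph node gave 0 calls (adjusted p = 0.011). The pairs of genes past the threshold were 0 of 10, and became 3 with each gene as the mean of its probe sets, 5 as partial correlations given the 5′ index, 3 within low 5′ tumors, and 0 without tumor 5, an alternative added after seeing the data. RMA gives no detection call, so values near an array's lower quartile, such as PECAM1 and TIE1 in cell lines, may be background, and folds against them may be too small.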
